A study of Mus musculus with 121 samples.

Results

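The 10 hypoxia pathway genes described here are Hif1a, Epas1, Egln1, Egln3, Bnip3, Vegfa, Ndrg1, P4ha1, P4ha2 and Adm. They were chosen by name and matched through their Ensembl identifiers to 10 of the 31053 genes counted, and all 10 were among the 13292 genes that were abundant enough to be tested. RNA came from Per2::Luc fibroblasts, an immortalized line grown from the ear of mice in which the clock gene Per2 carries a luciferase reporter, and every group carried this PER2::LUC sv reporter. Cells in microfluidic chambers received for 3 days a medium high in glucose and insulin (H) and a medium low in both (L) in 12 h turns, as H then L (HL, 21 libraries), L then H (LH, 22 libraries) or H at each change (HH, 19 libraries), and were then left 12 h without a medium change before RNA was collected at 6 times 4 h apart. Each treatment and collection has 2 to 4 libraries, all of 1 cell line, and no label names a change of oxygen. The comparisons ask whether the order of rich and poor medium left a mark on these genes, in their mean level or in their course over the 24 h.

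Hypoxia-inducible factors are made of an oxygen-regulated alpha subunit, encoded by Hif1a or Epas1, and the constant partner Arnt. In the presence of oxygen the prolyl hydroxylases encoded by Egln1 and Egln3 mark the alpha subunit for ubiquitination by the Vhl complex, so that most of the control acts on the protein and not on the mRNA that was counted here. When the hydroxylases slow, the factor binds a short core, A or G followed by CGTG, near its target genes, among them the angiogenic ligand Vegfa, the vasodilator peptide Adm, the mitophagy receptor Bnip3, the stress-response gene Ndrg1, the collagen prolyl 4-hydroxylase subunits P4ha1 and P4ha2, and Egln1 and Egln3 themselves, which feed back on the factor.

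Reads came from the 3′ end of transcripts (3′DGE), so CPM (counts of a gene for each 1000000 counts of its library) do not grow with the length of a gene. How completely each gene is counted can still differ, since 18.4% to 29.1% of reads of a run fell on no feature. The order of levels below is therefore an order of counts. Of the 62 libraries, 61 had 2136819 to 11619095 counts, and 1, LH collection 2 replicate 2, had 104912. Fibroblast markers summed to means of 29940 to 32770 CPM in the 3 treatments, with Col1a1 and Col1a2 high in all libraries, while the 4 keratinocyte markers summed to at most 4.57 CPM in a library (Krt5 at 0 in all 62, Cdh1 at a mean of 1.48 CPM) and the 4 cartilage markers to at most 4.08 CPM (Matn1 at 0 in all 62, Acan at a mean of 0.536 CPM). The 4 blood markers summed to 123.9 CPM in the shallow library, through Ptprc (76.25 CPM) and Cd68 (47.7 CPM), and to at most 7.96 CPM in the others. Kdr, a receptor of Vegfa that marks endothelium, was present at 20.3 to 269.7 CPM (mean 172.1), with the other endothelial markers Pecam1, Cdh5 and Tek at means of 0.276, 0.0672 and 0.00887 CPM. RNA was taken from whole cultures, in which a change in the share of a kind of cell and a change in the RNA of each cell cannot be told apart.

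Time was taken from the number of the collection, as hours after the first, and not from the clock times in the labels. Those read 20, 12, 4, 8, 12 and 16 for collections 1 to 6 in HL and HH and 20, 12, 16, 20, 12 and 16 in LH, which repeat and do not run 4 h apart. Each hour, peak and rhythm below therefore rests on the order of the collections.

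The names of the libraries are uncertain, and this touches each comparison below. Results use the title of each deposited sample. In a supplementary read summary, the same library numbers have other names for 35 libraries and are missing for 5 more, which together are all 22 of LH and 18 of the 21 of HL, whereas all 19 HH libraries have 1 name in both. Results were therefore also computed by library number, with 57 libraries, 19 in each treatment, of which LH collection 5 has 1 library, so that tests by number there take its spread from the other groups. These labels could not both be right for 35 libraries, and which is right was not settled here. Same-numbered libraries of different treatments deviated together in 15 of 52 pairs by title and in 33 of 43 by number, as described at the end.

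The promoters of the 4 genes that turn out to move together or against each other over libraries (Hif1a, P4ha1, Vegfa and Bnip3) are printed here, as the 250 bases before and 50 bases after the start site in RefSeq (GRCm38.p6), in the direction of transcription. Capitals mark ACGTG or GCGTG on either strand, so CACGT and CACGC are the same motifs read from the other strand, and CACGTG holds 2 overlapping matches. The window of Hif1a is chr12:73907617-73907916 (+ strand), that of P4ha1 is chr10:59323046-59323345 (+ strand), that of Vegfa is chr17:46032328-46032627 (- strand) and that of Bnip3 is chr7:138909457-138909756 (- strand).
Hif1a: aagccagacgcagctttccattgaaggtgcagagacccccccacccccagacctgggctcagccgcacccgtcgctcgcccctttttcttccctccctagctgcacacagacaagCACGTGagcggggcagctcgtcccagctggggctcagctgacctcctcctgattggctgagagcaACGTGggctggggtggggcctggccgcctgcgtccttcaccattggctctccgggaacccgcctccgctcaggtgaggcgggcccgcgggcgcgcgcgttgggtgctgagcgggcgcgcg
P4ha1: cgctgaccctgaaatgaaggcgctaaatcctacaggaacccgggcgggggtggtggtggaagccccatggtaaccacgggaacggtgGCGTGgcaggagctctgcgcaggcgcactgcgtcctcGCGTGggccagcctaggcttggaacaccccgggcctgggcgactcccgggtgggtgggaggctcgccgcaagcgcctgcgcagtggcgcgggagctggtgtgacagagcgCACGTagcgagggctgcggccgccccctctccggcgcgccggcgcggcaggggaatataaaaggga
Vegfa: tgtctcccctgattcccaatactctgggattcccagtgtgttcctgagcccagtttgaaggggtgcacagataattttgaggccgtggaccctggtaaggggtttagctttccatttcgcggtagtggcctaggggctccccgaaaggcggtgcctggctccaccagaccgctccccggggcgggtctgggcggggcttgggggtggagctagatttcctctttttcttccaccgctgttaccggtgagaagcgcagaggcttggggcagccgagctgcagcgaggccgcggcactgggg
Bnip3: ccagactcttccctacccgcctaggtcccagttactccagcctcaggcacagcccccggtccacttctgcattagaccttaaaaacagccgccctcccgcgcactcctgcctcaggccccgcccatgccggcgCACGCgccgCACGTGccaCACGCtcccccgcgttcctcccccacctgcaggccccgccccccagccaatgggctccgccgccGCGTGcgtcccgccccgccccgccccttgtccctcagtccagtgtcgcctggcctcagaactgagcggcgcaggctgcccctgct

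Bnip3 had 5 matches in its window, P4ha1 and Hif1a 3 each, and the window at the upstream start of Vegfa 0, while the window at a second, downstream start of Vegfa had 2. The tables matched 8 of the 10 genes, and the other windows held 4 matches for P4ha2, 2 for Egln1, 2 for Adm and 1 for Egln3. Of 32851 promoter windows of this length, 43.77% held at least 1 match, 19.62% held ACGTG and 32.39% held GCGTG, so that a match is common and describes the letters alone. Epas1 and Ndrg1 had no entry.

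In the GRCm38 annotation (GENCODE M21) the regulators lie at chr12:73901375-73947530 (Hif1a) and chr17:86753700-86833410 (Epas1), and the sensors at chr8:124908587-124949324 (Egln1) and chr12:54178981-54203860 (Egln3). The secreted targets lie at chr17:46016993-46032369 (Vegfa) and chr7:110627661-110629820 (Adm), and the others at chr7:138890836-138909519 (Bnip3), chr15:66929318-66969640 (Ndrg1), chr10:59323296-59373304 (P4ha1) and chr11:54100095-54131665 (P4ha2). Hif1a, Bnip3, Ndrg1 and Adm each have an overlapping gene near the 3′ end that these reads come from, and these genes carried hardly any counts, the highest being 1.15 CPM in a library for Gm28863, antisense to Adm.

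The levels of the 10 genes spanned from well over 100 CPM to nearly none. Hif1a was the most abundant, with a median of 162.8 CPM over the 62 libraries, and was above P4ha1, the next, in 61 of them. P4ha1 (90.9 CPM) and Ndrg1 (82.7 CPM) were neighbours that could not be ordered, since P4ha1 was the higher in 37 of 62 libraries. Egln1 followed at 51.5 CPM and Adm at 27.4 CPM, and these were ordered the same way in 60 and 59 of 62 libraries against the gene just above them.

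Vegfa (18.5 CPM) and Bnip3 (17.5 CPM) were again too close to order, with Vegfa higher in 39 of 62 libraries. P4ha2 stood at 11.4 CPM and Epas1 at 6.19 CPM, both lower than the gene just above in 47 and 53 of 62 libraries. Egln3 was close to absent, with a median of 0.168 CPM and no count at all in 25 of 62 libraries, so its comparisons rest on a handful of reads. The 2 sensors of oxygen were therefore very unequal in these fibroblasts, as were the 2 alpha subunits.

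Hif1a, the alpha subunit shared by most tissues, ranged from 119.5 to 1044 CPM in HL (median 162.7), from 112.3 to 1240 CPM in LH (median 169.6) and from 93.8 to 487.5 CPM in HH (median 155.4). The medians lay close together while the ranges overlapped almost wholly, and the upper end was set by a few libraries. Epas1, the alpha subunit of endothelium and a few other tissues, ranged from 2.20 to 12.7 CPM in HL, from 1.41 to 11.7 CPM in LH and from 1.496 to 15.4 CPM in HH, with medians of 6.19, 6.20 and 6.41 CPM. It is a low gene, with a median of 34 counts a library, and its groups overlapped.

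Egln1, the main hydroxylase of the alpha subunits, ranged from 30.7 to 79.7 CPM in HL (median 49.8), from 32.5 to 73.1 CPM in LH (median 52.8) and from 29.5 to 74.2 CPM in HH (median 54.1). Egln3, the more inducible hydroxylase, was at 0 in 7 of 21 HL, 13 of 22 LH and 5 of 19 HH libraries and reached at most 2.36 CPM in HL, 1.61 CPM in LH and 1.82 CPM in HH. Its median was 1 count a library, and no order of the treatments can be read from it.

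Among the targets, Vegfa ranged from 13.5 to 51.5 CPM in HL (median 16.85), from 0 in the shallow library to 92.8 CPM in LH (median 18.7) and from 10.3 to 25.6 CPM in HH (median 19.3). Adm ranged from 10.1 to 44.5 CPM in HL (median 26.2), from 10.6 to 77.7 CPM in LH (median 30.0) and from 16.7 to 51.4 CPM in HH (median 24.95). Bnip3 ranged from 3.94 to 26.0 CPM in HL (median 17.0), from 2.77 to 23.1 CPM in LH (median 17.9) and from 7.70 to 26.7 CPM in HH (median 17.8). In each of these secreted or mitochondrial targets the treatments overlapped, and Bnip3 had its tail at the low end where Vegfa had its tail at the high end.

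Ndrg1 ranged from 63.7 to 112.4 CPM in HL (median 75.6), from 57.6 to 124.7 CPM in LH (median 87.9) and from 59.5 to 119.5 CPM in HH (median 81.4). P4ha1, the main catalytic subunit of the enzyme that hydroxylates proline in collagen, ranged from 64.2 to 183.4 CPM in HL (median 89.4), from 69.7 to 182.3 CPM in LH (median 93.5) and from 64.7 to 139.3 CPM in HH (median 92.25). P4ha2, its alternative subunit, had medians of 11.4, 11.3 and 11.6 CPM in HL, LH and HH. The groups again overlapped for these 3 genes.

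The mean levels did not separate the treatments. A gene was called when edgeR's quasi-likelihood test over the 3 treatments and the comparison itself passed the limits that the study's methods set, 0.01 and 0.05, without adjustment over genes. In HH against HL, 0 of the 10 genes were called against 1.2% of all genes tested, in LH against HL 0 of 10 against 1.16%, and in LH against HH 0 of 10 against 0.91%. At an unadjusted p under 0.05 in the comparison alone there were likewise 0 of 10 in each, beside 7.42%, 5.69% and 5.23% of all genes, and DESeq2 also gave 0 of 10 in each. HH and LH are both set against the same HL libraries, and LH against HH follows from those 2 comparisons.

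For Hif1a the log2 difference was -0.45 ± 0.28 (SE; 95% interval -0.99 to 0.09, adjusted p = 0.753) in HH against HL, which was the lowest of the 10 in that comparison. In LH against HL it was -0.11 ± 0.26 and in LH against HH 0.33 ± 0.27, both within intervals that hold 0. None of the 3 differences was larger than the spread between libraries allows to be told from 0.

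Adm had the smallest unadjusted p of the targets, with log2 differences of 0.24 ± 0.14 (p = 0.0895) in LH against HL and 0.26 ± 0.14 (p = 0.0709) in LH against HH, and of -0.02 ± 0.14 in HH against HL. Vegfa differed by -0.20 ± 0.19 in HH against HL and by -0.01 ± 0.18 in LH against HL on the same scale. The precise members were those with the narrowest intervals. Ndrg1 differed by -0.05 ± 0.08 (95% interval -0.21 to 0.11) and Egln1 by 0.12 ± 0.09 (95% interval -0.05 to 0.29) in HH against HL. P4ha1 differed by -0.05 ± 0.11 in HH against HL and by 0.04 ± 0.11 in LH against HL.

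The median over the 10 genes was -0.03, -0.04 and 0.03 on the log2 scale in HH against HL, LH against HL and LH against HH, beside 0.0023, 0.0013 and -0.00024 over all 13292 genes. The size of the difference, without its sign, had a median of 0.05, 0.07 and 0.10 in the 10 genes and of 0.11, 0.10 and 0.10 in all genes.

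By library number, again 0 of 10 genes were called, against 0.568% of the genes tested in HH against HL, 1.34% in LH against HL and 1.63% in LH against HH. Here the mean level of Hif1a was higher in LH, by a log2 difference of 0.57 ± 0.28 (p = 0.0436, adjusted p = 0.644) against HL and of 0.68 ± 0.27 (p = 0.0165, adjusted p = 0.384) against HH, but its test over treatments missed the limit. The medians of Hif1a by number were 162.7 CPM in LH, 166.7 CPM in HL and 155.4 CPM in HH. Libraries at 728.2, 1044 and 1240 CPM are in LH by number. Vegfa had 0.41 ± 0.20 (p = 0.0483) and P4ha2 -0.27 ± 0.12 (p = 0.0361) in LH against HL by number, which made 3 genes with an unadjusted p under 0.05 in that comparison (7.63% of all genes), beside 1, Hif1a, in LH against HH (10.2%) and 0 in HH against HL (3.62%). In LH against HL the sign thus turned with the names for Hif1a, and also for Adm (-0.17 ± 0.13 by number), Egln1 (0.09 ± 0.08 by titles, -0.14 ± 0.09 by number), Epas1 (-0.07 ± 0.20 and 0.29 ± 0.19) and Vegfa.

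**Figure D1:**
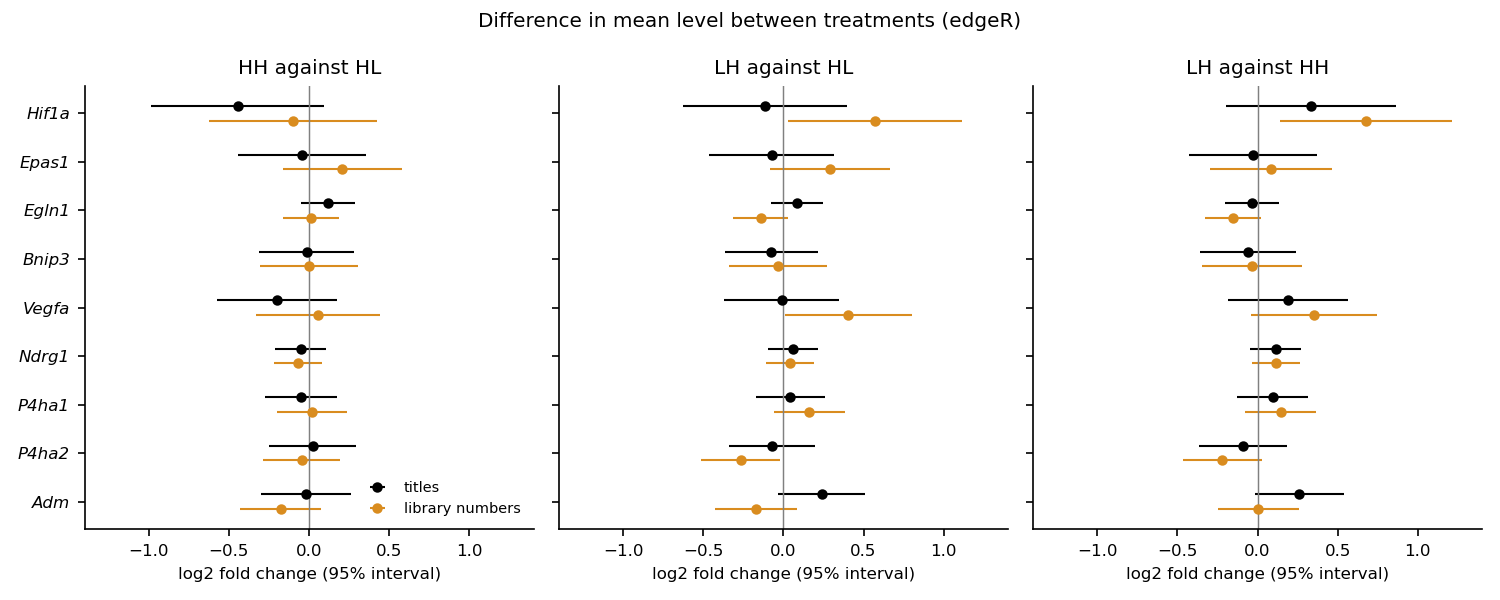
Log2 difference of 9 of the 10 genes (Egln3 is left out for its low counts) in the 3 comparisons of mean level, with bars of 1.96 SE, by sample titles and by library number. All intervals by titles include 0, and by number those of Hif1a (0.57), Vegfa (0.41) and P4ha2 (-0.27) in LH against HL and of Hif1a (0.68) in LH against HH do not.

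The spread of Hif1a within a treatment and collection was larger than that of almost any other gene. The SD of log2(CPM + 1) after the mean of each treatment and collection was removed was 0.80 for Hif1a, at percentile 99.2 of 7780 genes with a mean of at least 10 CPM, whose median was 0.31. Bnip3 had an SD of 0.57 (percentile 95.3), Adm 0.51 (percentile 91.9) and Vegfa 0.45 (percentile 86.0). P4ha1 with 0.32 (percentile 50.5), Egln1 with 0.31 (percentile 47.3) and Ndrg1 with 0.25 (percentile 27.4) were ordinary or quiet genes.

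The high values of Hif1a lay in libraries that the read summary numbers as replicate 4 or does not list, where 7 libraries stood above 2 times the median of Hif1a (162.7 CPM over the 61 deep libraries), from 419.7 to 1240 CPM, and the next below was at 306.8 CPM. By title they were 3 HL, 3 LH and 1 HH libraries with the replicate numbers 1, 2, 3 and 4 (2, 2, 2 and 1 libraries). By library number 6 of the 7 are listed and all 6 are replicate 4, among 15 libraries numbered 4 and 17 titled 4.

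LH collection 2 replicate 1 by title had 1240 CPM of Hif1a, 92.8 CPM of Vegfa, 182.3 CPM of P4ha1, 2.77 CPM of Bnip3 and 10.6 CPM of Adm. HL collection 5 replicate 2 had 1044 CPM of Hif1a, 48.2 CPM of Vegfa, 183.4 CPM of P4ha1, 3.94 CPM of Bnip3 and 10.1 CPM of Adm. HL collection 2 replicate 3 had 852.4 CPM of Hif1a, 51.5 CPM of Vegfa, 137.5 CPM of P4ha1, 6.28 CPM of Bnip3 and 16.0 CPM of Adm. These 3 libraries with the most Hif1a were also the 3 with the most Vegfa and the least Bnip3, and the first and second of them had the most P4ha1, while the third was passed in P4ha1 by HH collection 6 replicate 4.

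HL collection 6 replicate 3 had 728.2 CPM of Hif1a and HH collection 6 replicate 4 had 487.5 CPM. LH collection 6 replicate 1 and LH collection 5 replicate 2 had 442.7 and 419.7 CPM. Vegfa was at 25.1, 23.7 and 19.9 CPM in the last 3 of these, beside a median of 18.5 CPM over all libraries. In the same 7 libraries Hsph1, a heat shock chaperone, was at 483.7 to 2241 CPM beside a mean of 282.7 CPM over libraries. Atf4, the factor of the integrated stress response, was at 1023 to 3410 CPM, and Txnip, whose mRNA follows glucose, at 8.77 to 51.3 CPM, and the part of these genes in the Hif1a values was not tested.

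The separate sequencing runs of these 7 libraries gave close levels of Hif1a. The first and second run of LH collection 2 replicate 1 had 1270 and 1214 CPM of Hif1a, and those of HL collection 5 replicate 2 had 1047 and 1041 CPM. Bnip3, with fewer counts, differed more between runs, with 14.0 and 8.90 CPM in HL collection 6 replicate 3. Pearson's r of log2(CPM + 1) of Hif1a with the log10 total count was 0.02 over 61 libraries (Spearman's rho 0.10). Without the libraries numbered 4 or not listed, the SD of Hif1a within treatment and collection fell to 0.19 (percentile 19.4, 40 libraries), while the median of all genes fell from 0.31 to 0.26. The libraries left out were picked after the data were seen and include all 7 with the highest Hif1a, so a fall for Hif1a was built into the choice. The SD also fell for Bnip3 (0.34), Adm (0.36) and Vegfa (0.32), to percentiles 81.05, 85.0 and 76.0, and P4ha2 moved from percentile 74.7 (0.39) to 85.8 (0.36). The level of Hif1a then differed by -0.04 ± 0.08 in HH against HL, 0.08 ± 0.08 in LH against HL and 0.12 ± 0.08 in LH against HH on the log2 scale, in a comparison chosen after the data were seen, and 0 of 10 genes were called against 1.93%, 2.06% and 1.56% of the 12879 genes tested.

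HH is the treatment in which both sources name the libraries alike, and there replicate 4 had the highest Hif1a of its collection in all of its collections but the first. Replicate 4 of HH had 143.3 CPM of Hif1a in collection 1, where the other 3 libraries had 127.1 to 151.1 CPM. In collection 2 it had 217.7 CPM (the others 129.3 to 160.3 CPM) and in collection 3 243.7 CPM (the others 186.5 to 191.8 CPM). In collection 4 it had 306.8 CPM beside 155.4 CPM in the only other library, and in collection 6 487.5 CPM beside 93.8 to 159.1 CPM in the other 3. No replicate 4 of collection 5 was analysed here.

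In the HH replicate 4 Hif1a, Vegfa and P4ha1 were each the highest of their collection in 4 of 5 collections, which held for 8.41% of the 13292 genes (counted as at least 4 of 5). Bnip3 was the lowest of its collection in 5 of 5, which held for 0.76% of genes. In collection 6 Vegfa was at 25.1 CPM in replicate 4 beside 10.3 to 20.1 CPM, P4ha1 at 139.3 CPM beside 64.7 to 120.8 CPM, and Bnip3 at 7.70 CPM beside 10.25 to 26.7 CPM. The hydroxylase Egln1 did not share this, being the highest in 2 and the lowest in 2 of the 5 collections, and Ndrg1 was the lowest in 3 of 5 (22.5% of genes in at least 3).

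**Figure D2:**
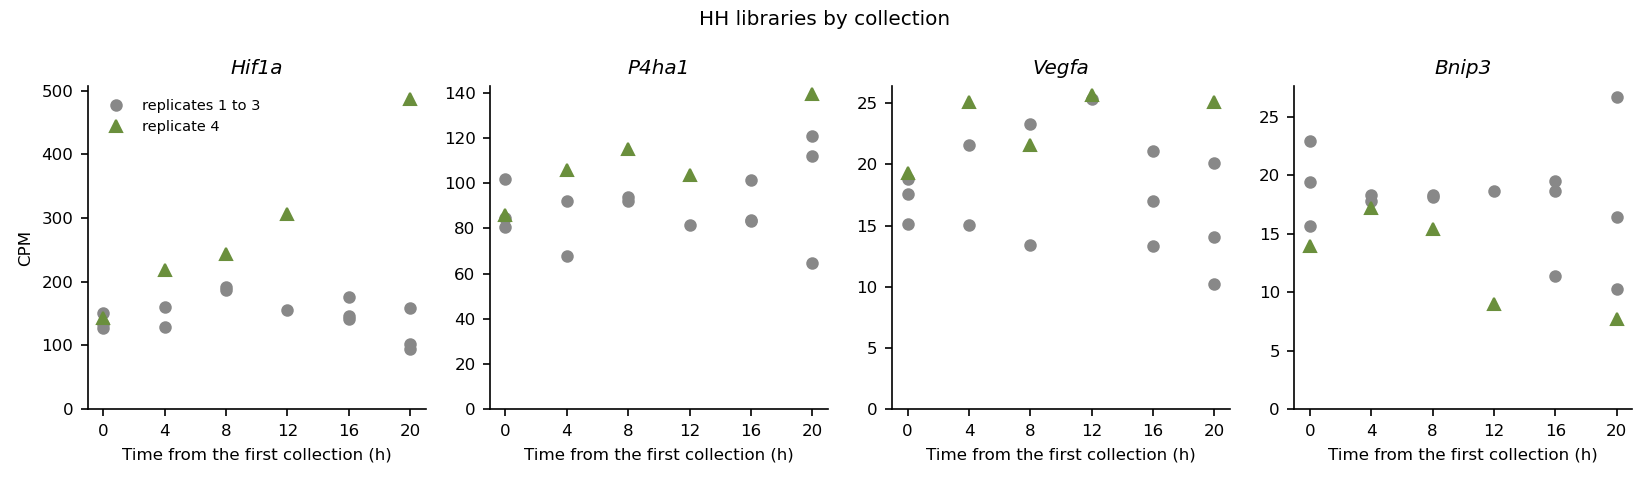
CPM of Hif1a, Vegfa, P4ha1 and Bnip3 in the HH libraries by hours after the first collection, with replicate 4 marked apart from the other replicates. Replicate 4 rises in Hif1a from 143.3 to 487.5 CPM and is the lowest in Bnip3 at each of its 5 collections.

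Over libraries Hif1a moved with P4ha1 and Vegfa and against Bnip3 and Adm, while P4ha2 (r = -0.04, adjusted p = 0.881) and Ndrg1 (r = -0.23, adjusted p = 0.194) did not pass the test. All 45 pairs of the 10 genes were compared by Pearson's r and Spearman's rho on log2(CPM + 1) over 61 libraries, with 100000 permutations, and 13 pairs had an adjusted p under 0.05 by Pearson's r and 7 of these 13 also by Spearman's rho. The share over pairs of all genes was not computed. Of 7779 other genes, 759 had r of at least 0.5 with Hif1a and 1571 of at most -0.5. The permutations took the libraries as exchangeable, although by number many libraries of 1 replicate number deviated together. Hif1a and P4ha1 had r = 0.75 (permutation p = 1e-05, the smallest possible, adjusted p = 7.5e-05) and rho = 0.52 (permutation p = 3e-05, adjusted p = 0.000675). Hif1a and Vegfa had r = 0.74 (permutation p = 1e-05, adjusted p = 7.5e-05) and rho = 0.45 (permutation p = 0.00025, adjusted p = 0.00375). Vegfa and P4ha1 had r = 0.64 (permutation p = 1e-05, adjusted p = 7.5e-05) and rho = 0.40 (permutation p = 0.00166, adjusted p = 0.0123). These 3 pairs were the most alike of the 45.

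Bnip3 stood against all 3. Hif1a and Bnip3 had r = -0.76 (permutation p = 1e-05, adjusted p = 7.5e-05) and rho = -0.43 (permutation p = 0.00065, adjusted p = 0.00731). P4ha1 and Bnip3 had r = -0.75 (permutation p = 1e-05, adjusted p = 7.5e-05) and rho = -0.58 (permutation p = 1e-05, adjusted p = 0.00045). Vegfa and Bnip3 had r = -0.66 (permutation p = 2e-05, adjusted p = 0.000129) and rho = -0.39 (permutation p = 0.00191, adjusted p = 0.0123). A mitophagy receptor usually listed among the targets of the factor was thus lowest where the mRNA of its subunit was highest.

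The relations among Hif1a, P4ha1, Vegfa and Bnip3 were weaker without the libraries numbered 4 or not listed. Those libraries include the 7 with the highest Hif1a, so leaving them out also narrows the range of Hif1a. Without the 2 libraries farthest from the median on the axis of the first gene, r was 0.61 for Hif1a and P4ha1, 0.58 for Hif1a and Vegfa and -0.59 for Hif1a and Bnip3. Within treatment and collection r was 0.77, 0.76 and -0.76 for the same pairs, and within the 19 HH libraries 0.62, 0.64 and -0.54. Over the 42 libraries that are listed and not numbered 4, r was 0.25 for Hif1a and P4ha1, 0.25 for Hif1a and Vegfa and 0.05 for Hif1a and Bnip3. Of the 6 pairs, P4ha1 and Bnip3 kept the most, with r = -0.36. Hif1a and Adm differed from these pairs, with r = -0.56 (permutation p = 1e-05, adjusted p = 7.5e-05) and rho = -0.40 (permutation p = 0.0016, adjusted p = 0.0123) over 61 libraries, -0.27 within HH, -0.39 without the 2 farthest libraries and -0.47 over the 42 libraries.

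**Figure D3:**
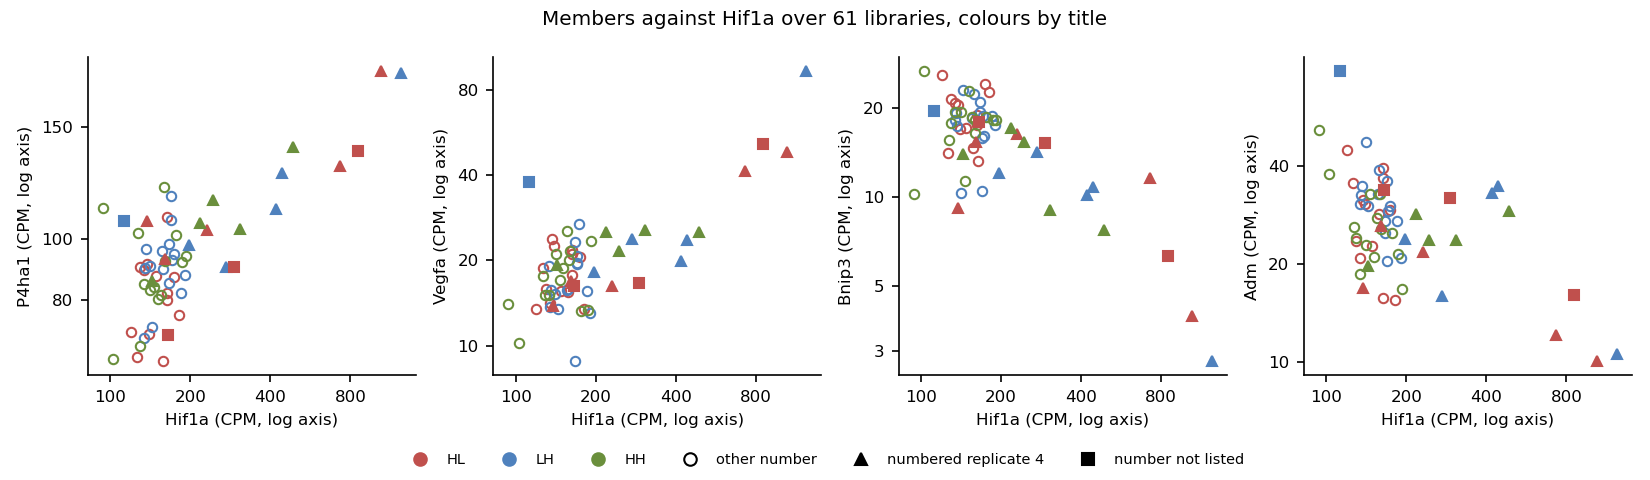
CPM of P4ha1, Vegfa, Bnip3 and Adm against CPM of Hif1a in 61 libraries, on log axes, with the libraries that are numbered 4 or not listed marked apart. The 7 libraries from 419.7 CPM of Hif1a up are all of the marked kind, and over all 61 libraries r is 0.75 with P4ha1, 0.74 with Vegfa, -0.76 with Bnip3 and -0.56 with Adm.

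The relation with Hif1a is given here by list, with no test between lists. Over 7779 other genes with a mean of at least 10 CPM, the median r with Hif1a was -0.16 and 35.7% were above 0. P4ha1 and Vegfa lay at percentiles 96.9 and 96.7 of these genes, and Adm and Bnip3 at 15.6 and 3.05. The 11 pathway components that were abundant enough had a median r of -0.16 with 36.4% above 0, close to all genes. The 13 enzymes and transporters of glycolysis that were abundant enough had a median r of 0.45 with 84.6% above 0, from 0.84 for Aldoa to -0.46 for Tpi1. The 18 other targets had a median of 0.14, from 0.92 for Rora to -0.71 for Zfp395, and 5 stress genes of Atf4 had a median of 0.62 with 100% above 0. The 10 collagen clients and partners of the prolyl 4-hydroxylases, which P4ha1 serves, had a median of -0.55.

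Without the libraries numbered 4 or not listed, and so over a narrower range of Hif1a, the medians were 0.05 for glycolysis, 0.12 for the other targets, 0.36 for the Atf4 genes and 0.17 for the collagen list, beside 0.15 for all genes. Of all genes compared, 154 had r of at least 0.8 with Hif1a and 118 of at most -0.8. The highest were Hsph1 (0.97), the growth factor Ereg (0.95), Ier3 (0.95), the splicing factor Mbnl2 (0.95) and the stress gene Nupr1 (0.94), and the lowest the matrix protease Mmp11 (-0.90), Pmp22 (-0.89) and Osr1 (-0.89). No member was among these extremes, which are given as a description over the same 61 libraries.

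By titles, the course over the 24 h was called in a test for 2 of the 10 genes, Vegfa and Ndrg1. Among collections of LH, Vegfa was called by edgeR's quasi-likelihood test (adjusted p = 0.00292), 1 of 10 genes against 2.93% of all genes tested, and Hif1a was the other gene with an unadjusted p under 0.05 (16.9% of all genes). Vegfa had 15.8, 20.8 and 15.7 CPM in LH collection 1, then 92.8, 0 and 37.9 CPM in collection 2, and 8.83, 15.5, 18.2 and 13.5 CPM in collection 3. Collections 4, 5 and 6 of LH lay at 13.1 to 26.9, 15.3 to 19.9 and 13.7 to 23.7 CPM. The difference was that of collection 2, whose first replicate is the library with the most Hif1a and whose second replicate is the shallow one.

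Without LH replicate 1 the adjusted p of Vegfa was 0.826, without libraries under 1000000 counts it was 0.000431, and by library number it was 0.203. The collection 2 libraries of LH are, by number, a replicate 4 of LH collection 6 and 2 that are not listed. By number Vegfa instead had a log2 slope over LH of 0.26 a collection, which was not called (adjusted p = 0.0993 for the linear trend, called for 2.52% of all genes). DESeq2 by number (0.27, adjusted p = 0.0445) and a fit by number with the replicate as a block (0.24, adjusted p = 0.0400), both chosen after the data were seen, called that slope for Vegfa and for 3.72% and 5.74% of all genes. Without the libraries numbered 4 the slope by number was 0.08 (adjusted p = 0.462). By titles the slope in LH was -0.12 (adjusted p = 0.818), so the direction turned with the names.

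Ndrg1 was called for a 24 h rhythm in HH by JTK_CYCLE, a rank test against cosine curves (exact p = 0.00711, called at 0.01 without adjustment over genes; adjusted p = 0.450), with its peak at 16 h after the first collection. This was 1 of 10 genes against 1.99% of all genes tested (6.39% at an unadjusted p under 0.05). Ndrg1 had 82.8, 70.0, 88.9 and 83.8 CPM in HH collection 1, 69.35, 70.3 and 59.5 CPM in collection 2 and 84.9, 80.4 and 74.2 CPM in collection 3. It had 85.8 and 76.6 CPM in collection 4, 103.1, 119.5 and 104.5 CPM in collection 5 and 76.4, 88.5, 81.4 and 78.7 CPM in collection 6.

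The 3 libraries of collection 5 were the highest of the 19, and the 3 of collection 2 were among the 4 lowest. The call was lost without HH replicate 1, 2, 3 or 4 (exact p = 0.0557, 0.0918, 0.0131 and 0.0149), with either sequencing run alone (exact p = 0.0298 and 0.274), with each of the 12 phases counted, and after adjustment over genes. Without HH replicate 1 Epas1 was called in its place, and with the first run alone Adm. The test of any difference between the collections of HH did not call Ndrg1 (p = 0.0414, adjusted p = 0.546). By number and without the libraries numbered 4, a choice made after the data were seen, Ndrg1 instead differed between the collections of LH (adjusted p = 0.0461, 2.56% of all genes called). It also rose over HL by a log2 slope of 0.09 a collection (adjusted p = 0.0364, 2.34% called) and had a rhythm in HL (exact p = 0.00633, adjusted p = 0.396, 1.98% called).

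No other course was called by titles. In HL 0 of 10 genes differed between collections (0.301% of all genes), and 2, Hif1a (p = 0.00701, adjusted p = 0.325) and Vegfa (p = 0.0491, adjusted p = 0.556), had an unadjusted p under 0.05 (8.98% of all genes), also with DESeq2. In HH 0 of 10 differed (0.293% of all genes), with Ndrg1 and Adm (p = 0.0382, adjusted p = 0.524) under 0.05 (8.61% of all genes), also with DESeq2. No gene of the 10 had a called linear trend in HL (0.105% of all genes), LH (0.0% of all genes) or HH (0.79% of all genes).

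In HH the trends with an unadjusted p under 0.05 in edgeR (11.2% of all genes) and in DESeq2 were those of Adm (log2 slope 0.14 ± 0.05 a collection, p = 0.0115, adjusted p = 0.251), Ndrg1 (0.07 ± 0.03, p = 0.0261) and Egln1 (0.07 ± 0.03, p = 0.0338). Adm had 18.6 to 26.0 CPM in the 4 libraries of HH collection 1 and 29.1 to 51.4 CPM in the 4 of collection 6. The middle collections were at 24.0 to 28.4, 16.7 to 23.7, 23.7 to 27.7 and 22.8 to 32.8 CPM, of which collection 3 reached below collection 1. Without the libraries numbered 4, by number and chosen after the data were seen, the trend of Adm in HH was 0.16 (adjusted p = 0.0344, 5.88% of all genes called). In LH Egln1 had a slope of 0.07 ± 0.04 (p = 0.0401), the only gene of the 10 under 0.05 there by either tool (6.36% of all genes by edgeR), and in HL there was none of the 10 by either tool (6.93%).

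JTK_CYCLE called 0 of 10 genes in HL (0.82% of all genes) and 0 of 10 in LH (1.5% of all genes) by titles, and 0 had an unadjusted p under 0.05 (3.42% and 5.2% of all genes), the lowest being 0.112 for Vegfa in HL and 0.0927 for Epas1 in LH. By library number it called Adm in HL (exact p = 0.00661, adjusted p = 0.479, peak at 18 h), 1 of 10 against 1.82% of all genes. The test of whether courses differed between treatments called 0 of 10 genes (0.128% of all genes) by titles, with Vegfa under 0.05 by edgeR (p = 0.0115, adjusted p = 0.302, 11.6% of all genes under 0.05) and by DESeq2, and 0 of 10 by number (0.0% of all genes), with none under 0.05 by edgeR or DESeq2.

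Beside the 10 members, calls were counted in the rest of the pathway. Of 13 further components of oxygen sensing that were tested (Arnt, Vhl, Hif1an, Cul2 and others), 1 was called by titles, the clock-linked repressor Bhlhe40, which differed between the collections of HH (adjusted p = 0.0336) with means of 3.25 CPM at 4 h and 13.5 CPM at 8 h (0.293% of all genes were called there). Of 18 glycolytic targets, 0 were called in the 3 comparisons of level, Gapdh differed between the collections of LH (adjusted p = 0.0191, 2.93% of all genes). Tpi1 had a rhythm in HH (exact p = 0.00811, adjusted p = 0.453, 1.99% of all genes). Gapdh and Tpi1 have near-identical copies in the mouse genome, which makes their counts uncertain. Pkm, the pyruvate kinase, was lower in HH than in HL by 0.32 ± 0.11 on the log2 scale (p = 0.00427) but missed the limit over treatments by titles, and by number it was called as higher in LH than in HH.

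Of 25 other targets tested, Stc2 and Lox had the most calls. Stc2, a secreted glycoprotein induced by stress and hypoxia, rose over HH from 63.5 to 74.5 CPM in the 4 libraries of collection 1 to 123.5 to 166.2 CPM in the 4 of collection 6 (log2 slope 0.20 ± 0.03 a collection, adjusted p = 0.000151). Lox, the oxidase that crosslinks collagen, fell over HH from 1263 to 1541 CPM in collection 1 to 624.1 to 1138 CPM in collection 6 (log2 slope -0.16 ± 0.03, adjusted p = 0.00025). A linear trend in HH was called for 0.79% of all genes tested. The share of genes that separate collections 1 and 6 of HH was not counted.

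By titles Stc2 was also higher in LH than in HL by 0.38 ± 0.09 (adjusted p = 0.261) and in HH than in HL by 0.22 ± 0.10 (adjusted p = 0.637), and Lox lower in LH than in HL by 0.32 ± 0.08 (adjusted p = 0.243) and than in HH by 0.17 ± 0.08 (adjusted p = 0.883), all called at the unadjusted limits. Courses by titles were also called outside HH, between the collections of HL for Stc2 and Lox (adjusted p = 0.0065 and 0.0159). They were called between the collections of LH for Lox (adjusted p = 0.0101), and as a rhythm in LH for both (exact p = 0.00425 and 0.000222, adjusted p = 0.518 and 0.248). By number these level differences were not called (Stc2 -0.10 ± 0.07 and Lox 0.09 ± 0.05 in LH against HL), while linear trends were called in all 3 treatments. Stc2 then rose by 0.23, 0.20 and 0.20 a collection and Lox fell by 0.22, 0.16 and 0.16 in HL, LH and HH (adjusted p at most 5.2e-05), and their courses did not differ between treatments by the test (p = 0.689 and 0.442). In HH, whose libraries have 1 name in both sources, these 2 targets outside the 10 members had called courses, and of the members Ndrg1 alone had one, by a test without adjustment.

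Fam162a, a target that encodes a mitochondrial protein, was called by titles between the collections of LH (adjusted p = 0.0098). It had 28.6 to 92.1 CPM in LH collection 2, the one in which Vegfa stood out. Trib3, a pseudokinase of the Atf4 response, was lower than in HL by 0.47 ± 0.18 in HH (adjusted p = 0.594) and by 0.64 ± 0.18 in LH (adjusted p = 0.472), 1 of 9 stress genes (1.2% and 1.16% of all genes called). By number it was not called and its sign turned, with log2 differences of 0.04 in HH and 0.33 in LH against HL. Atf4 itself was called by number as higher in LH than in HL and in HH (1.34% and 1.63% of all genes called). LH by number holds libraries high in Hif1a that had 3410, 2706 and 2000 CPM of Atf4. Col1a1 was the 1 of 10 collagen clients and partners of the prolyl 4-hydroxylases with a call by titles, a fall over HH by 0.15 ± 0.04 a collection (adjusted p = 0.0494), and P4ha1 and P4ha2 were not called there (0.05 ± 0.04 and -0.04 ± 0.05). By number, 6 of the 10 fell over LH (Col1a1, Col1a2, Col3a1, P3h1, P4hb and Serpinh1, against 1.52% of all genes falling) and 1, Col1a1, over each of HL and HH. Col3a1 and P3h1 were also called between the collections of LH, Col1a1 and Col5a1 for a rhythm in LH, and P4ha3 for a higher level in HH than in HL and in LH.

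Of the 10 proliferation genes, Plk1 differed between the collections of LH (adjusted p = 0.025), Mcm5 and Top2a fell over HH by 0.31 ± 0.07 and 0.27 ± 0.06 a collection on the log2 scale (adjusted p = 0.0153 and 0.012), and Pcna and Top2a had a rhythm in HH (exact p = 0.00591 and 0.00108, adjusted p = 0.395 and 0.232). By number 6 of the 10 fell over HL, 5 over LH and 4 over HH (against 0.644%, 1.52% and 0.705% of all genes). By the same names, 3, 4 and 2 differed between collections (against 0.394%, 1.05% and 0.803%), and 3, 5 and 2 had a rhythm (against 1.82%, 2.14% and 2.0%). Neither of the 2 glucose-sensing targets of MondoA, Txnip and Arrdc4, was called by titles. Genes of the lists with small p that were not called by titles were Hmox1 in HH against HL (-0.29 ± 0.10, p = 0.00513) and Mki67 for its trend in HH (-0.23 ± 0.08, p = 0.00399). So were Pfkl for its trend in HL (-0.09 ± 0.03, p = 0.00235), and Ankrd37 and Ero1l for their trends in LH (0.85 ± 0.36, p = 0.0234, and 0.10 ± 0.04, p = 0.0328). The trends of Bhlhe40 (log2 slope 0.22, p = 0.000959) and Loxl2 (-0.91, p = 0.00165) in HL had smaller p than that of Pfkl and were not called either.

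Loxl2, a low gene, turned its sign with the names. By titles it was not called (1.32 ± 0.50 in LH against HL, p = 0.0111), and by number it was called as lower in LH than in HL (-1.89 ± 0.53, p = 0.000793, adjusted p = 0.478) and in HH (-1.68 ± 0.54, p = 0.00271, adjusted p = 0.288). Other calls by number were those of Cul2 and Higd1a for a rhythm in LH and of Car9 between the collections of LH.

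The genes most like the members as a group were Cavin3, Psmc2, Abhd8, Tmbim6 and Kifc3, by the mean r with the 8 members of at least 10 CPM on log2(CPM + 1) over 61 libraries. Their mean r was 0.23, 0.22, 0.22, 0.22 and 0.21, which are low values, and the r of Cavin3 ran from -0.24 with Bnip3 to 0.50 with Egln1. Among the 10 genes themselves the median r over the 45 pairs was -0.08, with 16 pairs above 0.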

How the data were processed

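RNA of 62 libraries was sequenced by 3′DGE on a NovaSeq, single-end, by a service. Reads were aligned with STAR 2.6.0a to mm10 and counted by gene with HTSeq 0.9.1, after bcl2fastq, per the submitters' processing notes. The authors deposited raw counts, 1 set for each of 121 sequencing runs; neither the annotation release nor the use of strand is given in the sources used here. Closing lines that name no gene (18.4% to 29.1% of reads of a run on no feature) were left out, and both runs were added up for each library. The chi-square per degree of freedom was 1.27 to 2.09 between runs of a library and at least 2.92 between libraries of a group. Identifiers matched symbols in GENCODE M21 (GRCm38) for 30934 of 31053 genes.

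Tests covered genes that reached 1 CPM in 3 or more libraries. Levels were compared with edgeR 4.0.16 (quasi-likelihood, TMM) with terms for treatment and collection. Collections, linear trends and the interaction were tested in 1 model of the 18 groups and called at an adjusted p (Benjamini-Hochberg, over all genes) under 0.05. JTK_CYCLE, rewritten with exact p-values, used a 24 h period and phases in steps of 2 h, corrected over 6 pairs of opposite phases. The tests were checked on simulated data. DESeq2 1.42.0, R 4.3.3, Python 3.11.15 and scipy 1.17.1 were also used. Log values are log2(CPM + 1), and SE, SD and n are as stated. The methods speak of independent experiments without tying libraries to them, so p-values measure the spread between these libraries, which may be partly technical.

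The members, the gene lists and the tests were chosen with earlier results of these data known. Named beside the members are genes of the lists that were called or had 1 of the 2 smallest p in a test, the 5 genes with the highest mean r with members of at least 10 CPM, and the 3 highest and 3 lowest pairs. A gene that the rule names is not reported here. Other list ends and genes correlated with Hif1a were named after their values were seen. Alternatives were library numbers, each run alone, other filters and scaling, DESeq2, a replicate block, a cosine, adjustment over genes and leaving out replicates or shallow libraries.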

Additional observations from a re-analysis of the deposited data

Results flagged for a closer look

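In the 9 treatment and collection groups that have 4 libraries, each of the 10 genes was searched for a library that stands far from the other 3 by Dixon's test, and 15 of the 90 searches found one. Of these, 5 are of Egln3, whose groups hold few counts, and 10 come from the 81 searches of the other genes. The limit used is passed in about 1 in 20 groups of independent normal values. CPM need not be normal and the genes share libraries, so that rate cannot be applied to these searches. The rate over all genes was not computed. In 14 of the 15 the library was the highest of its group. Hif1a was found in HL collection 6 (replicate 3, 728.2 CPM), LH collection 5 (replicate 2, 419.7 CPM), LH collection 6 (replicate 1, 442.7 CPM) and HH collection 6 (replicate 4, 487.5 CPM), all of which are replicate 4 by library number. Vegfa was found in HL collection 2 (replicate 3, 51.48 CPM, not listed by number) and HL collection 4 (replicate 3, 21.03 CPM), and P4ha2 in LH collection 6 (replicate 1, 17.24 CPM).

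HL collection 4 replicate 1 stood apart for Egln1 (79.71 CPM) and Ndrg1 (92.29 CPM). The 1 low value was Epas1 in LH collection 4 (replicate 3, 1.413 CPM). For Egln3, where the other libraries of a group had few counts or none, the libraries were LH collection 3 replicate 4 (1.239 CPM), LH collection 4 replicate 4 (1.605 CPM), LH collection 5 replicate 2 (0.8081 CPM), LH collection 6 replicate 4 (1.462 CPM) and HH collection 6 replicate 1 (0.3138 CPM). The part of depth, batch or naming in these values was not tested.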

How the results depend on the processing

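Of 318 counts of called members under 29 alternatives, 30 were not within 1.5 times the reported count. With no gene filter, calls were 2 for HL collections (Hif1a, Vegfa), 1 for the HL trend, 3 for LH collections, 2 for HH collections, 1 for the HH trend and 2 for the interaction. By library number the HL rhythm count was 1 and LH collections 0. By number without replicates 4 it was 1 for the HL trend, HL rhythm, HH collections and HH trend, and 0 for the HH rhythm. By number, both DESeq2 and the replicate block gave 0 for LH collections and 1 for the LH trend. The second run alone gave 1 for the HL rhythm, 2 for LH collections and 0 for the HH rhythm, which was also 0 after adjustment over genes, with a cosine and with 12 phases. Leaving out 1 replicate gave 0 (LH replicate 1) to 2 (HL replicate 3) for LH collections, 0 to 1 (Epas1, without LH replicate 1) for the LH rhythm, 0 (HH replicate 2, 3 or 4) to 1 for the HH rhythm (Epas1 in place of Ndrg1 without HH replicate 1) and 0 to 1 (Vegfa, without HL replicate 3) for the interaction. The cause of these changes was not tested. Shares of all genes called are not given here for no gene filter, the second run alone or the replicates left out. The counts under those settings therefore do not show whether the members differ from other genes. None of 30 level differences was called among 777 refitted values, although 24 changed sign in at least 1, and 79 moved by over 1 SE, 57 of these by number.

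By title, same-numbered libraries of different treatments deviated together (r over 0.1) in 15 of 52 pairs and other libraries in 44 of 153 (medians -0.02 and 0.0014). By number they did so more often, in 33 of 43 pairs beside 30 of 131 (medians 0.20 and -0.06), with the closest library of the same number for 30 of 56, a hint from the data that numbers share something. Since not every pair did and no label ties numbers to an experiment, pairing was not assumed. The replicate block by titles changed no member's call (Vegfa between LH collections, adjusted p = 0.00233). Depth limits Egln3 and Epas1, and LH collection 2.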
